A study of Homo sapiens with 15 samples.

Results

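Wnt proteins are secreted ligands that bind Frizzled receptors and their co-receptors, and in the canonical branch of the pathway this stabilizes β-catenin, which then works with TCF and LEF proteins on target genes. Other ligands, WNT5A among them, act mostly without β-catenin, through receptors such as ROR1 and ROR2. Secreted antagonists hold the ligands or the co-receptors back, and the pathway is known for its part in lung development and in the repair of the airway epithelium.

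The genes described here are 10 of the 28395 genes in the count table, taken by name: the ligands WNT5A, WNT5B, WNT7A and WNT7B, the secreted antagonists DKK1, DKK3 and SFRP1, the receptor FZD7, the feedback inhibitor AXIN2 and the nuclear factor TCF7L1. They were followed in BEAS-2B, an established cell line from human bronchial epithelium, grown with or without PET-NPLs, nanoplastic particles of polyethylene terephthalate, at 50 µg/mL. Total RNA of 15 samples was sequenced after removal of ribosomal RNA: 2 control and 2 exposed samples at 24 h, 2 and 2 at 15 weeks, and 3 controls and 4 exposed samples at 30 weeks. Controls were untreated cells of matched passage kept beside the exposed ones. By the paper's methods the culture medium held Plasmocin, and no other treatment or genetic change was named for any group. The sample labels place 24 h and 15 weeks in batch 1 and 30 weeks in batch 2, so each comparison of exposed with control cells lies within 1 batch, whereas a step from 15 to 30 weeks cannot be told apart from the step between batches. The labels do not say that replicates came from separate cultures, and p-values then measure only the spread between these samples, which may be technical. All samples come from a single cell line. The genes and the lists were chosen with earlier results of these data known, so shares of all genes set beside them are descriptions.

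Libraries held 23143202 to 31459990 counts. Of the 13 epithelial markers looked at, KRT5, TP63 and FOXJ1 had at most 3 counts in each sample of both 30-week groups. The markers summed to 317 to 413 CPM (counts scaled to library size by TMM) in the 30-week controls against 880 to 1099 CPM in the exposed samples. Of 7 tested, 3 were higher and 0 lower. At 24 h the sum was 1987 to 2298 CPM in controls and 2234 to 2265 CPM in exposed cells. At 15 weeks it was 854 to 898 and 826 to 1036 CPM. At 30 weeks KRT8 and KRT18 made up most of it, with 598 and 313 CPM in exposed replicate 1 and 187 and 220 CPM in control replicate 1. Of the tested fibroblast, endothelial and immune markers, 1 of 6, 3 of 3 and 1 of 2 were higher and 2, 0 and 1 lower. Over all tested genes 12% were higher and 11.7% lower at 30 weeks. The endothelial markers were scarce, with sums of 0.559 to 0.902 CPM in the 30-week controls and 2.15 to 3.01 CPM in the exposed samples. A list of 12 skeletal muscle markers summed to 341 to 434 CPM in the 30-week controls and to 31.7 to 42.8 CPM in the exposed samples, with 7 of 8 tested markers lower. In the other groups that sum lay between 16.3 and 43.5 CPM. Exposed replicate 2 at 30 weeks correlated with its own group at 0.976 to 0.981 across genes, below the 0.991 among the other exposed samples, and its effect on each result that it changes is given there. The part of the marker differences in the results below was not tested. A set of 6 small noncoding RNAs (RN7SL1, RN7SL2, RN7SK, RPPH1, SNORD3A and RMRP) took 22.30% to 31.03% of counts in the 30-week controls. It took 17.0% to 21.5% in the 30-week exposed samples and 9.75% to 12.9% in the other groups. The TMM factor of control replicate 1 at 30 weeks was 0.739, the lowest of all.

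After 30 weeks of exposure, 3 Wnt ligands and 1 secreted antagonist were upregulated and AXIN2 was downregulated. WNT7B rose 7.17-fold, WNT5B 5.54-fold, WNT5A 2.18-fold and DKK1 2.10-fold, whereas AXIN2 fell to 0.553 of the control level. DKK3, SFRP1, FZD7 and TCF7L1 did not pass the test, and WNT7A had 0 counts in all 15 libraries. Thus 5 of the 9 tested genes were differentially expressed (adjusted p under 0.05, edgeR's quasi-likelihood test), 4 of them higher and 1 lower. Across all 16740 genes tested the share was 23.7%, with 12% higher and 11.7% lower, given as a description since the 9 were chosen knowing earlier results. The samples of both groups did not overlap for 4 of the 9 genes, against 27.3% of all genes. With the 6 small noncoding RNAs left out of the counts, 5 of the 9 genes passed as before, with log2-fold-changes of 2.84 for WNT7B, 2.48 for WNT5B, 1.13 for WNT5A, 1.08 for DKK1 and -0.85 for AXIN2. Without exposed replicate 2, 6 of the 9 passed, SFRP1 being the added one, against 34.2% of all genes. Without control replicate 1, 14.9% of all genes passed. In bulk RNA, fewer cells with a transcript and less of it per cell cannot be told apart.

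**Figure D1:**
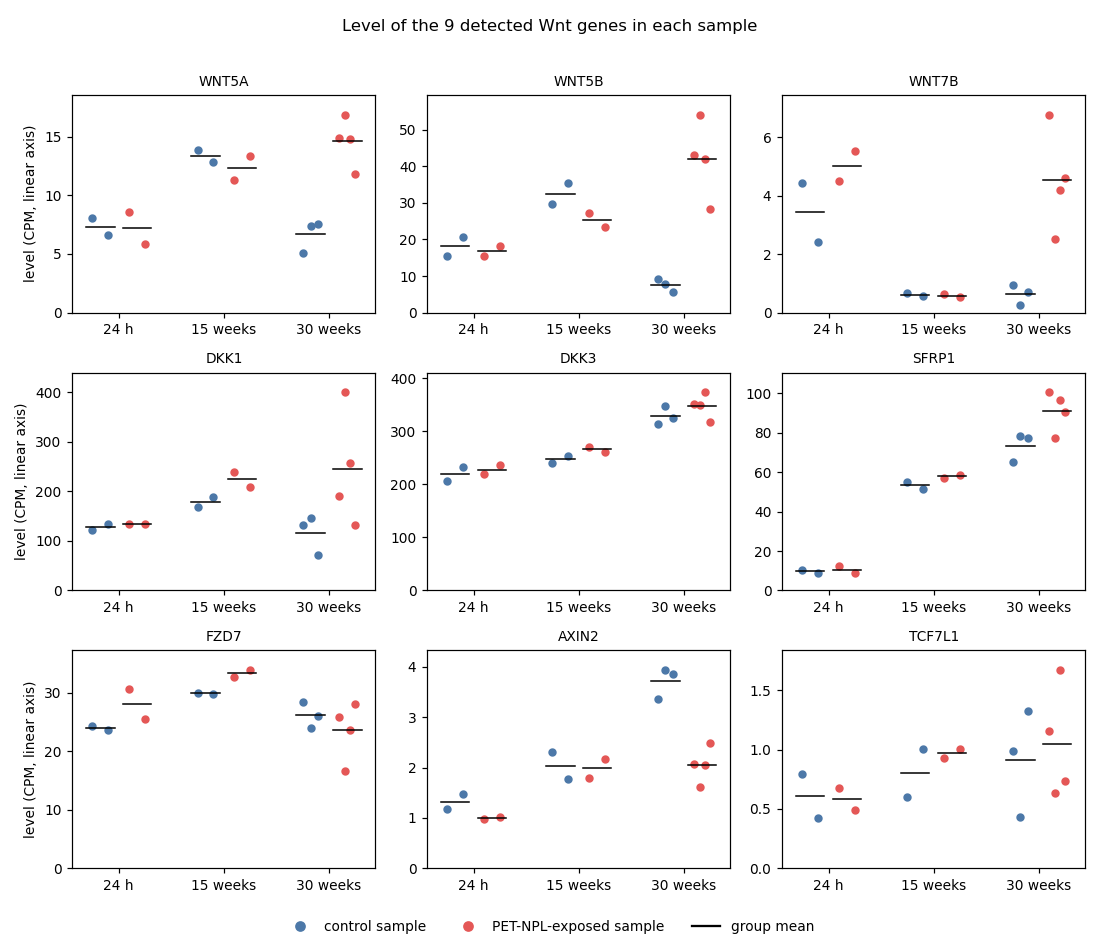
Level of each of the 9 detected Wnt genes (CPM, linear axes starting at 0) in every sample, by time point on the horizontal axis, with points for samples and bars for group means. At 30 weeks the exposed samples lie above every control for WNT5A, WNT5B and WNT7B and below every control for AXIN2, while DKK1 overlaps.

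WNT5B (Entrez gene 81029) lies at chr12:1617056-1647212 on the plus strand of GRCh38. This ligand, close in sequence to WNT5A, gave the smallest adjusted p of the 9 genes at 30 weeks. The 3 controls held 9.11, 7.94 and 5.65 CPM and the 4 exposed samples 43.2, 54.2, 41.9 and 28.2 CPM. The lowest exposed sample was thus above the highest control, and replicate 4 was the lowest of the exposed samples. The log2-fold-change was 2.47 (SE 0.218, adjusted p = 5.31e-07 by edgeR). At 24 h the controls held 15.5 and 20.6 CPM and the exposed samples 15.5 and 18.3 CPM, and at 15 weeks they held 29.6 and 35.5 CPM against 27.2 and 23.4 CPM. Before 30 weeks the exposed cells were therefore level with or below the controls. The 30-week controls were the lowest of the 6 groups and the 30-week exposed cells the highest by mean.

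WNT5A, the best known ligand of the β-catenin-independent branch, lay at lower levels. WNT5A (Entrez gene 7474) lies at chr3:55465715-55505263 on the minus strand of GRCh38. At 30 weeks the controls held 5.07, 7.40 and 7.55 CPM and the exposed samples 14.8, 16.9, 14.8 and 11.8 CPM. The groups did not overlap, and the log2-fold-change was 1.12 (SE 0.182, adjusted p = 0.000305 by edgeR). At 24 h the controls held 8.10 and 6.58 CPM against 8.59 and 5.83 CPM in exposed cells, and at 15 weeks 13.8 and 12.9 CPM against 11.3 and 13.4 CPM. Both early pairs of groups overlapped. The 30-week exposed samples were thus in the range of the 15-week samples or somewhat above it, and the 30-week controls in the range seen at 24 h or below it.

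WNT7B, a ligand made by the epithelium of the developing lung, was scarce. WNT7B (Entrez gene 7477) lies at chr22:45920366-45977162 on the minus strand of GRCh38. At 30 weeks the controls held 0.946, 0.253 and 0.716 CPM, which were 22, 7 and 20 counts, and the exposed samples 6.77, 2.52, 4.21 and 4.61 CPM, or 187, 72, 121 and 131 counts. Every exposed sample exceeded every control, with a log2-fold-change of 2.84 (SE 0.397, adjusted p = 7.3e-05 by edgeR). At 24 h it lay at 4.43 and 2.41 CPM in controls and 4.51 and 5.53 CPM in exposed cells, and at 15 weeks at 0.663 and 0.560 CPM in controls and 0.620 and 0.519 CPM in exposed cells. The 30-week exposed samples were thus near the 24 h level, and the 30-week controls near that of 15 weeks.

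WNT7A, its closest relative, was not detected, and a limit of 3 counts per library allows at most 0.0954 to 0.130 CPM. Zero counts were found in controls and exposed cells alike, so no comparison was made.

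DKK1, which binds the LRP co-receptors and blocks canonical signalling, was among the most abundant of the 10 genes. DKK1 (Entrez gene 22943) lies at chr10:52314281-52317657 on the plus strand of GRCh38. At 30 weeks the controls held 133, 146 and 71.1 CPM and the exposed samples 190, 400, 257 and 133 CPM. Exposed replicate 4 lay below 2 of the 3 controls, so the groups overlapped, and exposed replicate 2 was the highest sample of all 15. The log2-fold-change was 1.07 (SE 0.294, adjusted p = 0.0148 by edgeR). Without control replicate 3, the low one, it was 0.82 and no longer passed (adjusted p = 0.0592 by edgeR). Without exposed replicate 2 it was 0.73 (adjusted p = 0.0132 by edgeR). At 24 h DKK1 lay at 121 and 135 CPM in controls and 135 and 134 CPM in exposed cells. At 15 weeks it lay at 168 and 188 CPM in controls and 240 and 209 CPM in exposed cells, which did not overlap but did not pass the test (log2-fold-change 0.33, SE 0.374). Such separation was found for 45.3% of all genes at 15 weeks.

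DKK3, a divergent member of the Dickkopf family, held 313, 348 and 325 CPM in the 30-week controls and 351, 349, 373 and 318 CPM in the exposed samples. The groups overlapped and the log2-fold-change was 0.08, with a 95% interval of -0.12 to 0.29. SFRP1, which carries a Frizzled-like domain and binds Wnt ligands, held 65.0, 78.4 and 77.1 CPM in controls and 100, 77.3, 96.4 and 90.6 CPM in exposed samples. Exposed replicate 2 was the one that overlapped the controls. The log2-fold-change was 0.31 (adjusted p = 0.0924 by edgeR), and without that replicate it was 0.38 and passed (adjusted p = 0.0142 by edgeR).

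FZD7, a Frizzled receptor, held 28.5, 24.0 and 26.1 CPM in the 30-week controls and 26.0, 16.6, 23.7 and 28.0 CPM in exposed samples. The groups overlapped, and the log2-fold-change was -0.15 with a 95% interval of -0.44 to 0.14.

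AXIN2, a scaffold of the complex that degrades β-catenin and itself a widely used readout of canonical signalling, moved the other way from the ligands. AXIN2 (Entrez gene 8313) lies at chr17:65528563-65561648 on the minus strand of GRCh38. The 30-week controls held 3.35, 3.93 and 3.86 CPM, or 78, 109 and 108 counts, and the exposed samples 2.06, 1.61, 2.05 and 2.50 CPM, or 57, 46, 59 and 71 counts. All 4 exposed samples lay below all 3 controls (log2-fold-change -0.85, SE 0.196, adjusted p = 0.00482 by edgeR). At 24 h it lay at 1.18 and 1.47 CPM in controls and 0.978 and 1.03 CPM in exposed cells, and at 15 weeks at 2.31 and 1.77 CPM against 1.80 and 2.17 CPM. The 30-week exposed samples were thus near the 15-week level and the 30-week controls above every other group. TCF7L1, a DNA-binding factor that mostly represses Wnt targets, had 12 to 48 counts in each library. It lay at 0.989, 0.433 and 1.32 CPM in the 30-week controls and 1.16, 0.631, 1.67 and 0.739 CPM in the exposed samples, which overlapped, and the 95% interval of its log2-fold-change ran from -0.60 to 1.00.

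At 24 h and at 15 weeks, 0 of the 9 genes passed edgeR's test, against 0% of all genes at either time, and 0 of the 9 had an unadjusted p under 0.05. DESeq2 and limma-voom also called 0 of the 9. Unadjusted values under 0.05 were found for 277 genes at 24 h and 823 at 15 weeks. Fitted on the 4 samples of 15 weeks alone, 1.96% of genes passed and 0 of the 9 did. The log2-fold-changes of the 9 genes ran from -0.40 (AXIN2) to 0.55 (WNT7B) at 24 h and from -0.36 (WNT5B) to 0.33 (DKK1) at 15 weeks. With 2 samples a group these estimates were wide: for WNT5B at 15 weeks the 95% interval ran from -0.87 to 0.14.

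**Figure D2:**
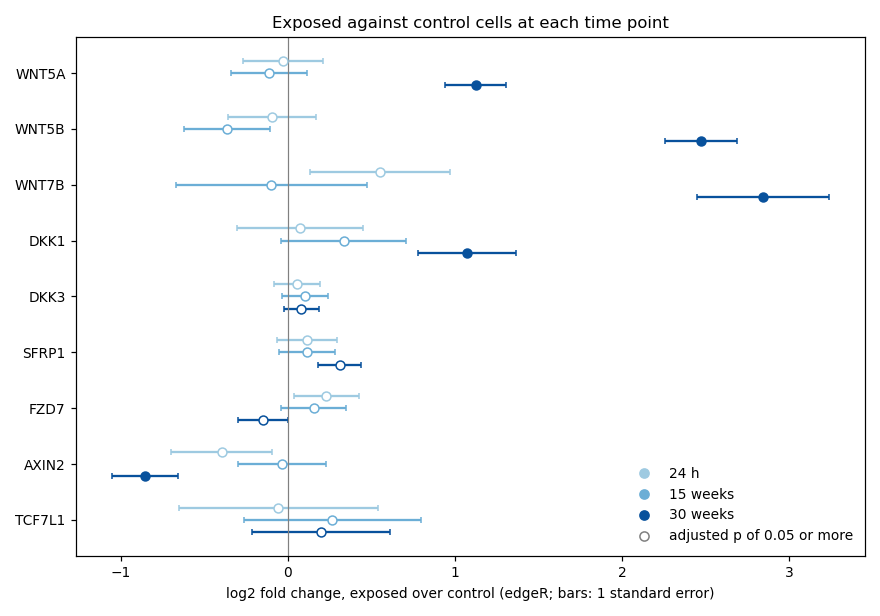
Log2-fold-change of exposed over control cells (horizontal axis, edgeR) for the 9 genes at 24 h, 15 weeks and 30 weeks, with bars of 1 SE and filled points where the adjusted p was under 0.05. The filled points are all at 30 weeks: WNT5A, WNT5B, WNT7B and DKK1 to the right of 0 and AXIN2 to the left.

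Whether the response at 30 weeks differed from that at 15 weeks was tested as an interaction, the change at 30 weeks minus the change at 15 weeks. It passed for 3 of the 9 genes, all ligands and all higher. Of all genes 4.74% passed, 2.66% higher and 2.08% lower. As the 9 were chosen with earlier results of these data known, this contrast is a description. The difference was 2.84 on the log2 scale for WNT5B (SE 0.335, adjusted p = 8.71e-05 by edgeR), 1.24 for WNT5A (SE 0.290, adjusted p = 0.0194) and 2.94 for WNT7B (SE 0.702, adjusted p = 0.0219). For DKK1 it was 0.74 (adjusted p = 0.509) and for AXIN2 -0.82 (adjusted p = 0.222). Without exposed replicate 2 of 30 weeks 3 of the 9 passed, against 9.1% of all genes. Leaving out any 1 of the 4 samples of 15 weeks leaves an arm of 1 sample, which is then assumed to vary like the other groups. These fits called 2.27% to 2.8% of all genes and left WNT5B as the single one of the 9 past the threshold, with an adjusted p for WNT5A of 0.0578 to 0.128 and for WNT7B of 0.0677 to 0.111.

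Several of these genes also changed with time in culture, in controls as well as in exposed cells. The comparisons below share samples with those above, and the values are given side by side. From 24 h to 15 weeks SFRP1 showed the largest rise of the 9 genes, from 10.4 and 9.02 CPM to 55.3 and 51.5 CPM in controls and from 12.2 and 8.84 CPM to 57.1 and 58.6 CPM in exposed cells. The log2-fold-change was 2.46 in both (adjusted p = 8.36e-08 in controls and 8.38e-08 in exposed cells, edgeR). WNT7B fell by 2.48 in controls and by 3.13 in exposed cells on the log2 scale, and WNT5A rose by 0.86 and 0.78. In controls WNT5B rose too, by 0.85, whereas its value of 0.58 in exposed cells did not pass. In exposed cells AXIN2 rose by 0.98, whereas its value of 0.62 in controls did not pass. In all, 4 of 9 genes changed in controls, against 24.9% of all genes, and 4 of 9 in exposed cells, against 26%. The calls of WNT5A and WNT5B in controls each failed without either of 2 samples (adjusted p up to 0.120 for WNT5A without control replicate 2 of 24 h and 0.210 for WNT5B without control replicate 1 of 24 h), as did WNT5A in exposed cells (up to 0.242 without exposed replicate 2 of 24 h). AXIN2 in exposed cells failed without any of 3 samples (up to 0.128 without exposed replicate 2 of 15 weeks). In each of these fits 1 arm held 1 sample, assumed to vary like the other groups, and 14.3% to 16.8% of all genes passed.

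From 15 to 30 weeks, which is also from batch 1 to batch 2, the ligands parted. In controls WNT5B fell by 2.11 and WNT5A by 1.00 on the log2 scale, and WNT7B had a value of 0.04 that did not pass. In exposed cells WNT5B rose by 0.73 and WNT7B by 2.98, and WNT5A had a value of 0.24 that did not pass. SFRP1 rose in both arms (0.46 in controls, 0.66 in exposed cells), and so did DKK3 (0.41 and 0.39). AXIN2 rose by 0.87 in controls and had a value of 0.05 in exposed cells, and FZD7 fell by 0.50 in exposed cells. In each arm 5 of 9 genes changed, against 50.3% of all genes in controls and 46% in exposed cells, so the counts are near the background. Without control replicate 2 of 15 weeks, 2 of the 5 remained in controls, and without control replicate 1, 3 did. SFRP1 in controls also failed without control replicate 2 or 3 of 30 weeks (adjusted p = 0.0552 by edgeR in each case). In exposed cells 2 remained without either exposed sample of 15 weeks. With an arm of 1 sample at 15 weeks, 36.6% to 36.8% of all genes passed in controls and 29.3% to 29.4% in exposed cells.

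Compared per kilobase of the main annotated transcript, DKK3 and DKK1 led in every group. In the 30-week exposed cells DKK3 lay at 138 and DKK1 at 136 CPM per kb, which do not differ beyond their spread. SFRP1 followed at 20.4 and WNT5B at 18.7 CPM per kb, and WNT5A lay at 2.50. In the 30-week controls SFRP1 was at 16.5 and WNT5B at 3.38 CPM per kb, so WNT5B moved from well under SFRP1 to near it. In the controls of 24 h the order of that pair was the other way, with WNT5B at 8.08 and SFRP1 at 2.17 CPM per kb.

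Other genes of the pathway were read from lists of roles, which held 84 genes besides the 10, of which 60 were tested. At 30 weeks 19 of these 60 changed, 8 higher and 11 lower, against 23.7% of all genes; their median log2-fold-change was 0.02, beside 0.01 for all genes. At 24 h and 15 weeks 0 of the 60 passed edgeR's test, and an unadjusted p under 0.05 was found for 0 of them at 24 h and for 3 at 15 weeks. By role at 30 weeks, 1 of 7 other ligands, 1 of 2 genes of ligand secretion, 0 of 3 other secreted antagonists, 6 of 16 other receptors, 0 of 6 surface inhibitors, 3 of 13 other cytoplasmic components and 6 of 11 other nuclear factors changed.

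**Figure D3:**
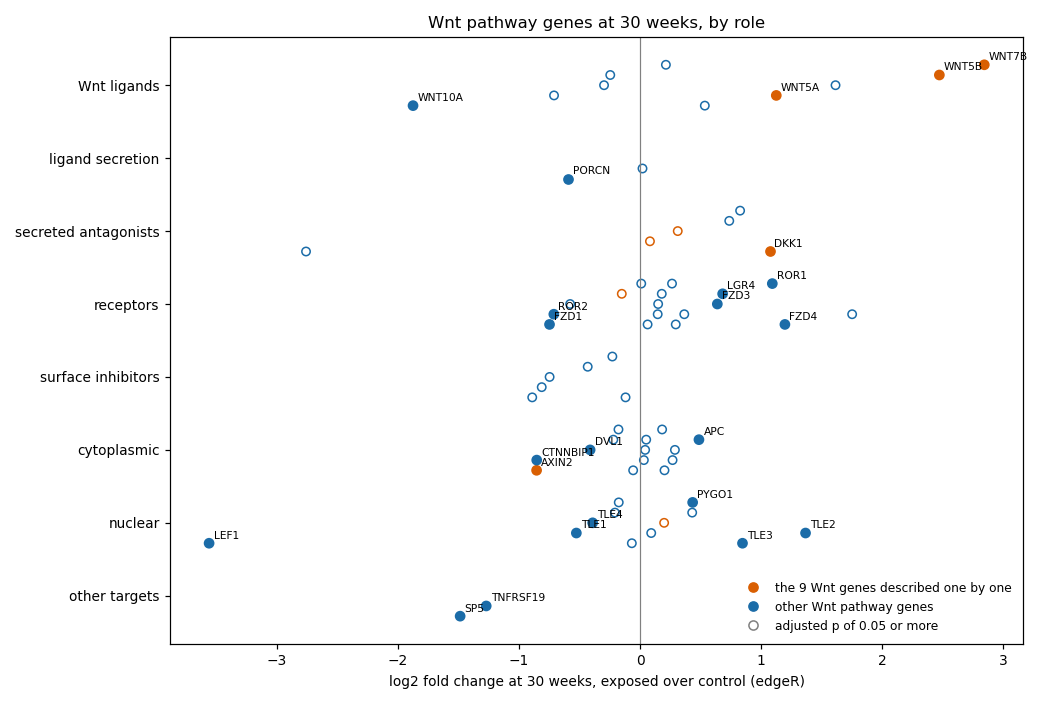
Log2-fold-change of exposed over control cells at 30 weeks (horizontal axis, edgeR) for each tested Wnt pathway gene, in rows by role; filled points passed the test. The ligands WNT5A, WNT5B and WNT7B lie to the right and WNT10A to the left. Of the targets of canonical signalling that passed, LEF1, SP5, TNFRSF19 and AXIN2 lie to the left and DKK1 to the right.

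Among ligands, WNT10A, which acts mainly through β-catenin, moved opposite to the 3 above: its log2-fold-change was -1.87 (SE 0.314, adjusted p = 0.000505 by edgeR), from a mean of 4.41 CPM in controls to 1.20 CPM in exposed cells. PORCN, the enzyme that attaches the lipid Wnt proteins need for secretion, fell by 0.59. Of the receptors, FZD4 rose by 1.20 and FZD1 fell by 0.75. ROR1 and ROR2, both named above as receptors for WNT5A, moved in opposite directions: ROR1 rose by 1.09 and ROR2 fell by 0.71. FZD3 and LGR4 also rose.

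Inside the cell, CTNNBIP1, which binds β-catenin and keeps it from TCF factors, fell by 0.85, DVL1, which relays the receptor signal, fell by 0.41, and APC, a scaffold of the β-catenin degradation complex, rose by 0.49. Of the nuclear factors, TLE3 rose by 0.85 and PYGO1 by 0.43, TLE1 fell by 0.53 and TLE4 by 0.39, and TLE2 rose and LEF1 fell, both with a mean under 1 CPM over the 7 samples of 30 weeks. TLE proteins are co-repressors of TCF factors, and 2 of the 4 rose and 2 fell. The calls of APC, DVL1, FZD1, FZD3, PYGO1, SP5, TLE2, TLE3 and TLE4 failed under at least 1 alternative or left-out sample, and the other 10 of the 19 passed under all 16 tried. PYGO1 failed under 8 of the 16, TLE3 under 7, TLE2 under 6, TLE4 under 5 and FZD1 under 4. APC and DVL1 failed under 3 each, FZD3 under 2 and SP5 under 1.

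Of 8 tested genes besides AXIN2 and DKK1 that canonical signalling commonly induces, 3 passed at 30 weeks and all 3 were lower in exposed cells, against 23.7% of all genes called and 11.7% lower. The other 5 did not pass, with log2-fold-changes of -0.81 for RNF43, -0.23 for ZNRF3, -0.18 for TCF7, -0.12 for APCDD1 and, on the other side of 0, 0.83 for NOTUM (adjusted p = 0.117 by edgeR). TNFRSF19 fell by 1.27, from a mean of 33.5 to 13.9 CPM, and SP5 fell by 1.49, from 2.33 to 0.828 CPM. LEF1, which is both a target and a nuclear effector and was singled out after its values were seen, held 24, 73 and 66 counts in the controls and 2, 5, 4 and 8 counts in the exposed samples. LEF1 had at most 3 counts in each sample of 24 h and 15 weeks. SP5 failed without control replicate 1 (adjusted p = 0.0827 by edgeR). DKK1, also a target, rose, as given above.

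**Figure D4:**
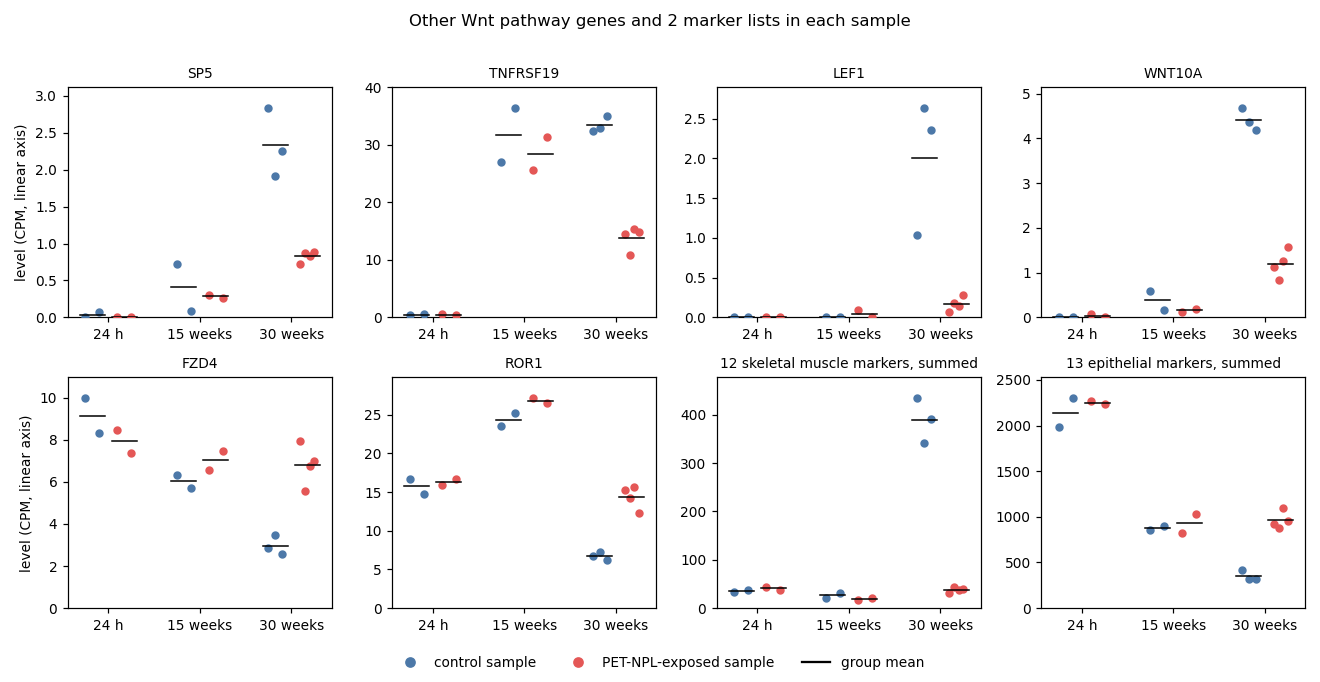
Level (CPM, linear axes starting at 0) in every sample of SP5, TNFRSF19, LEF1, WNT10A, FZD4 and ROR1, and of the summed skeletal muscle and epithelial markers, with points for samples and bars for group means. The 30-week controls stand above all other groups for the summed muscle markers (341 to 434 CPM), LEF1, SP5 and WNT10A, and below all others for ROR1, FZD4 and the summed epithelial markers.

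Promoter sequence is shown for the upregulated genes that have an entry in the RefSeq table used (GRCh38.p14). The counts are per gene and do not tell which start site was used, so nothing ties a rise to a site shown. For WNT5A and WNT5B the table holds 2 start sites each, and the one outside annotated exons is shown. The table matched 5 of the 10 genes. Each run is the 250 bases before a start site, 5′ to 3′ on the gene's strand, with capitals for a TCF/LEF motif (CTTTGAT or CTTTGAA) or a TATA box (TATAAA), each searched on both strands.
DKK1, chr10:52314031-52314280, plus strand: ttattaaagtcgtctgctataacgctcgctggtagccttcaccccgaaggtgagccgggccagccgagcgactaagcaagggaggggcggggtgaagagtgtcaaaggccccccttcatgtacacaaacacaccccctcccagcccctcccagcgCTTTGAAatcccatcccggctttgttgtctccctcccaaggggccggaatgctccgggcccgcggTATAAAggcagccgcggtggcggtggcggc
WNT5A, second start site, chr3:55481399-55481648, minus strand: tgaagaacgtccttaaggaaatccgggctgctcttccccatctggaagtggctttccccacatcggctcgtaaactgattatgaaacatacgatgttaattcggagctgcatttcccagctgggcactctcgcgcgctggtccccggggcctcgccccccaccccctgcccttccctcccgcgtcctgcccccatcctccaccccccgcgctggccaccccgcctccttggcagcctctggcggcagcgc
WNT5B, second start site, chr12:1628981-1629230, plus strand: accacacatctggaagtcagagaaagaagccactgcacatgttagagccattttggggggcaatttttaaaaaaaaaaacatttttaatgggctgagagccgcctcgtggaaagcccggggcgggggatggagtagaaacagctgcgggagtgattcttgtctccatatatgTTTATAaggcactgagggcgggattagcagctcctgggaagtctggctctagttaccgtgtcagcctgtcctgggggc

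The DKK1 window held CTTTGAA and TATAAA, the WNT5B window held TATAAA on the minus strand, and the WNT5A window held neither. Across 35116 promoters of the same length, 5.94% held the TCF/LEF motif and 10.7% the TATA box. The DKK1 window also lies wholly within an exon of PRKG1-AS1, a transcript of the opposite strand, while the other windows touch no annotated exon.

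Reads of neighbouring transcripts can enter some of these counts, since the counting strand is not given in the sources used here. PRKG1-AS1 shared 8.22% of the 50-base stretches of DKK1 exons but reached no more than 0.826 CPM. USP47, on the opposite strand, shared 45.8% of those of DKK3, so the DKK3 level is uncertain. A readthrough transcript shared 24.5% of those of AXIN2, and WNT5A, WNT5B and SFRP1 shared 0%. Of the 25 tested genes within 1 Mb of WNT7B, 1 was higher and 7 were lower at 30 weeks, and of the 10 around WNT5B 2 were higher and 0 lower. Over all tested genes 12% were higher and 11.7% lower. Around TCF7L1, 2 of 26 were higher and 9 lower, and around FZD7 1 of 25 was higher and 4 lower. For AXIN2 1 of 11 was higher and 1 lower. For DKK3 2 of 7 and for SFRP1 1 of 9 were higher, with 0 lower. The 3 around DKK1 did not pass, but their median log2-fold-change was 0.97, beside 0.03 for all tested genes of chromosome 10. WNT5A had 0 tested neighbours.

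The genes most like each of the 9 over the 15 samples, by Pearson's r of log2 CPM, were MATN2 (0.957) and PDZK1 (0.942) for WNT5A, NIBAN1 (0.964) and LRP3 (0.954) for WNT5B, and CADM3 (0.977) and C6orf132 (0.968) for WNT7B. For the antagonists they were ALG2 (0.887) and IDH3A (0.885) for DKK1, HAUS8 (0.980) and CARS2 (0.974) for DKK3, and GYG2 (0.992) and FOXF2 (0.990) for SFRP1. For FZD7 they were RPS6KA1 (0.899) and EDRF1-AS1 (0.878), for AXIN2 SPSB4 (0.957) and MAN1C1 (0.956), and for TCF7L1 NPIPB13 (0.855) and TAF15 (0.832). The points share libraries, groups and batches, and r is given as a description.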

How the data were processed

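The count values are whole-number gene counts that the authors deposited without normalization. By the paper's methods reads were trimmed with Rfastp and then aligned to GRCh38 and assigned to genes by Rsubread, and the submitters' processing notes name bcl2fastq, featureCounts and hg38. Counting strand and the handling of multi-mapping reads are not given in the sources used here. The authors' own tests used limma-voom with surrogate variables.

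Here filterByExpr, given the 6 conditions, kept 16740 of 28395 genes. Libraries were scaled by TMM, and edgeR 4.0.16 (R 4.3.3) fitted its quasi-likelihood model to all 15 samples, with 1 mean per condition. P-values, two-sided, were adjusted by Benjamini-Hochberg over every tested gene, and 0.05 was the threshold. CPM are TMM-scaled, log2 CPM used a prior count of 2, SE is the log2-fold-change over the root of its F value, and 95% intervals are normal ones from that SE. Positions and transcript lengths came from GENCODE on GRCh38. The procedure was tested on simulated data. A limit of 3 counts was used as the floor and covers counting error only.

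The members and lists were chosen with earlier results of these data known. All 10 genes are named. Of the other pathway genes, each called at 30 weeks is named, with values for up to 2 per role and direction at a mean of at least 1 CPM. For each tested gene the 2 genes with the highest r are named. Alternatives were DESeq2 1.42.0, limma-voom (limma 3.58.1), limma-voom with 2 surrogate variables (sva 3.50.0), each comparison on its own samples, no filter, RLE or upper-quartile scaling, counts without 6 small noncoding RNAs, the replicate number as a block, and each replicate left out.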

Additional observations from a re-analysis of the deposited data

Results flagged for a closer look

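For 3 ligands the response to exposure at 30 weeks differed from that at 15 weeks by the interaction test. The difference was 1.24 on the log2 scale for WNT5A, 2.84 for WNT5B and 2.94 for WNT7B. From 15 to 30 weeks WNT5B fell by 2.11 in controls and rose by 0.73 in exposed cells. WNT5A fell by 1.00 in controls, and its value of 0.24 in exposed cells did not pass (adjusted p = 0.335 by edgeR). WNT7B rose by 2.98 in exposed cells, and its value of 0.04 in controls did not pass (adjusted p = 0.959 by edgeR). The interaction compares changes within each batch, and the summed skeletal muscle markers, at 341 to 434 CPM in the 30-week controls and at most 43.5 CPM in every other group, move with the controls of 30 weeks. Their part in the result was not tested. Among the 4 exposed samples of 30 weeks, 0 of the 9 genes had a sample beyond the critical value of Dixon's ratio.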

How the results depend on the processing

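At 30 weeks WNT5A, WNT5B, WNT7B and AXIN2 passed under all 16 alternatives, with log2-fold-changes of 0.97 to 1.23, 2.30 to 2.63, 2.45 to 3.22 and -0.96 to -0.76. DKK1 failed when 30 weeks was fitted on its own samples (adjusted p = 0.0714 by edgeR) and without control replicate 3, and SFRP1 passed with surrogate variables (adjusted p = 0.0188 by limma) and without exposed replicate 2. TCF7L1, which did not pass, turned to -0.15 without control replicate 2 and -0.12 without exposed replicate 3, and ran from -0.15 to 0.59 over the left-out replicates. WNT7B lost its interaction call under limma-voom (adjusted p = 0.0733). Fitted on its own samples, each comparison gave 2 other pathway genes at 15 weeks and 11 at 30 weeks in place of 0 and 19, 7 of the 9 genes in place of 4 in exposed cells from 24 h to 15 weeks, and 3 in place of 5 in exposed cells from 15 to 30 weeks. The shares of all genes called in these fits were 1.96%, 15.3%, 44.9% and 41.9%, in place of 0%, 23.7%, 26% and 46%. With each 30-week replicate left out in turn, the count of the 9 genes at 30 weeks ran from 4 to 6. That of other pathway genes at 30 weeks ran from 12 to 24, lowest without control replicate 1. The share of all genes ran from 14.9% without control replicate 1 to 34.2% without exposed replicate 2. The effect of left-out samples on the interaction and the time steps is given above.

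Deviations from the group mean in same-numbered control and exposed samples had r of -0.06 at 24 h, 0.03 at 15 weeks and -0.12, 0.30 and 0.10 at 30 weeks. With 2 samples a group the deviations mirror each other, so the early values cannot decide whether the numbers pair samples. At 30 weeks differently numbered samples had r of -0.48 to 0.36, and pairing is not settled. A fit with the replicate number as a block gave each number an effect shared by all time points and both arms. It is therefore not a pairing within a time point. Replicate 4 exists only in exposed cells of 30 weeks, so its block term absorbs that sample. With this block, 0, 0 and 5 of the 9 genes passed at 24 h, 15 weeks and 30 weeks, beside 0%, 0% and 19.1% of all genes. The interaction called 3, beside 4%. From 24 h to 15 weeks 4 changed in controls and 6 in exposed cells, beside 23.5% and 24.7%. From 15 to 30 weeks 5 changed in each arm, beside 47% in controls and 38.6% in exposed cells. At 30 weeks 13 of 60 other pathway genes passed. With 2 samples a group at 24 h and 15 weeks, changes of the scarce genes TCF7L1 and WNT7B were the least precise. Their SE was 0.595 and 0.419 at 24 h and 0.528 and 0.573 at 15 weeks. The abundant DKK1 came next, with an SE of 0.374 at both times.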
